A study of Danio rerio with 16 samples.

Results

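The result described here is the difference between 2 responses to dioxin, that of zebrafish embryos mutant for wfikkn1 and that of wild-type embryos. For every gene, the change with TCDD in mutants minus the change with TCDD in wild type was estimated from all 14 libraries of the count table, out of 16 samples that the labels list. TCDD (2,3,7,8-tetrachlorodibenzo-p-dioxin) is a persistent ligand of the aryl hydrocarbon receptor (AHR). The wild type was the Tropical 5D strain, and the second line carried a mutation in wfikkn1 whose allele and background the labels do not give. Embryos of both lines received TCDD at 1 ng/mL or the vehicle, DMSO at 0.1%, for 1 h at 4 hours post fertilization (hpf), and were collected whole at 48 hpf. Each library came from a pool of 9 embryos kept in its own dish, so that the spread between libraries is one between pools. There were 3 libraries in each wild-type group and 4 in each mutant group. The wild-type replicates numbered 2, with DMSO and with TCDD, were not analysed here.

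As background, the AHR is a transcription factor of the cytoplasm that, once it has bound a ligand such as TCDD, moves to the nucleus, pairs with ARNT and switches on genes of xenobiotic metabolism, first among them cyp1a. In fish embryos ahr2 carries most of this response, and its activation disturbs heart, jaw and fin development. The Wfikkn1 protein is secreted, has follistatin, Kunitz and netrin domains, and in mammals is known to bind myostatin and GDF11, ligands of the TGF-beta family.

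Total counts per library ran from 20597475 to 26884477, and the tests covered 20098 of 32520 genes. The targeted gene wfikkn1 (ENSDARG00000101364) followed the labels. Its counts were 10, 12 and 19 in vehicle-treated wild type, 214, 454 and 520 in TCDD-treated wild type, 0, 0, 4 and 3 in vehicle-treated mutants, and 14, 15, 21 and 22 in TCDD-treated mutants. In either exposure all mutant libraries had fewer counts than all wild-type libraries, and in both lines the TCDD libraries lay above the DMSO libraries. The log2 change with TCDD was 4.80 in wild type and 3.25 in mutants, and the difference of -1.55 ± 1.01 (SE) was not called (edgeR adjusted p = 0.369, 95% interval -3.69 to 0.59). With mutant DMSO counts around a floor of 3, the mutant change is poorly measured.

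A gene was called at an adjusted p under 0.05 in the quasi-likelihood test of edgeR, with adjustment over all 20098 genes. Changes are log2 fold changes with their SE, and a negative difference means a smaller rise or a larger fall with TCDD in mutants than in wild type, or opposite changes. For calls of the difference, higher and lower mean a positive and a negative difference, not a level. In whole embryos, fewer cells of a type and less RNA per cell cannot be told apart.

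Libraries of the same group differed among themselves along a shared axis, and the position on it moved with the groups. The axis was the first singular vector of log2 CPM (counts scaled to library size) after group means were removed, over 15143 genes. It took up 28.8% of the variance within groups, and the next axis 13.9%. Each library was then given a score on it, with the group means kept. Wild-type DMSO replicates 1, 3 and 4 scored -0.987, 10.7 and -40.3, and the wild-type pools with TCDD 28.1, 14.8 and 19.2. Mutant DMSO pools scored 25.4, 13.6, -8.48 and 30.4, and mutant TCDD libraries -26.9, -28.9, -11.1 and -25.5. Scores were thus higher with TCDD in wild type and lower with TCDD in mutants, with no overlap between exposures in either line, and wild-type DMSO replicate 4 stood apart from its group. A gene's weight is its loading on this axis, given below as a percentile among the 15143 genes. Loadings were ranked with their sign. A low percentile is therefore not a small part in the axis, and genes at the low end can move against the score.

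**Figure D1:**
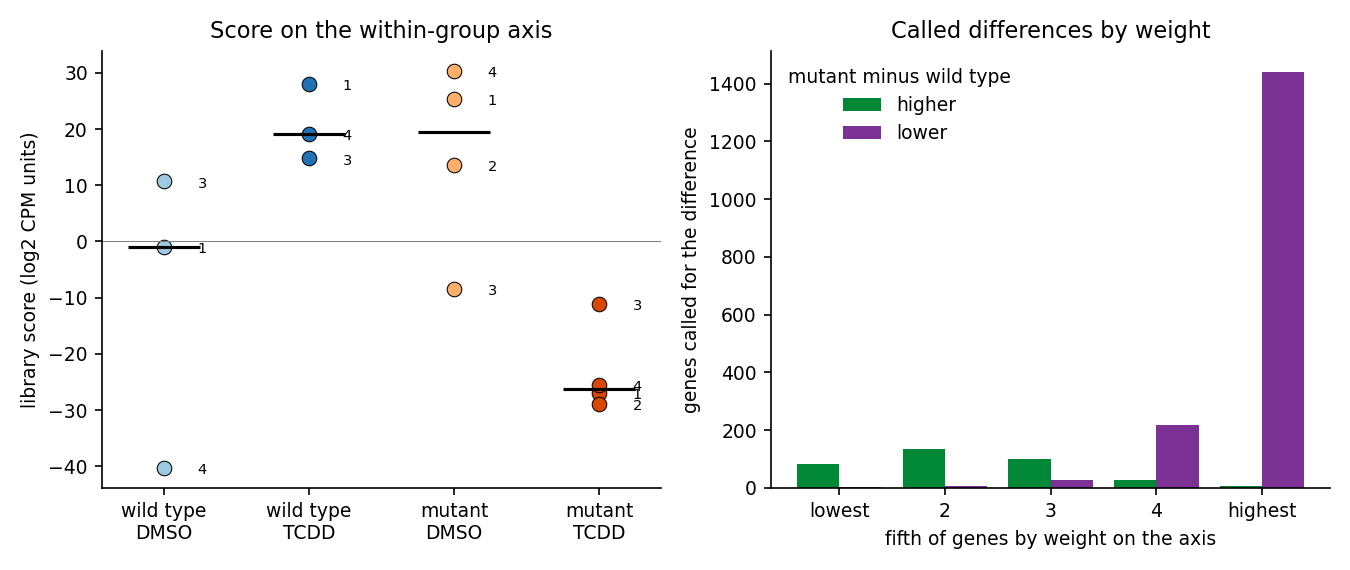
The left panel plots the score of each library on the within-group axis by line and exposure, with the replicate number beside each point and a bar at the group median; the right panel plots how many genes were called higher or lower in the difference in each quintile of genes by weight. Scores lie higher with TCDD in wild type (14.8 to 28.1) and lower with TCDD in mutants (-28.9 to -11.1), and the lower calls pile up in the quintile of highest weight.

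The difference was called for 2416 genes, most of them with a negative sign. They comprised 1173 genes called for TCDD in mutants and not in wild type, 320 called in wild type and not in mutants, 765 called in opposite directions, 32 called in the same direction and 126 called in neither line. It was positive for 372 genes (1.85% of those tested) and negative for 2044 (10.2%). With DESeq2 these counts were 832 and 2098, and 2385 of the 2416 genes were called there with the same sign. The changes behind the difference were 1777 rises (8.84%) and 1156 falls (5.75%) with TCDD in wild type, and 3524 rises (17.5%) and 3729 falls (18.6%) in mutants.

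Rises and falls of wild type were met differently by the mutants. Of the 1777 genes that rose in wild type, 537 also rose in mutants (30.2%), 759 fell (42.7%) and 481 were not called (27.1%). Of the 1156 genes that fell in wild type, 726 also fell in mutants (62.8%), 6 rose (0.519%) and 424 were not called (36.7%).

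These outcomes went with the weight. The score is a sum of log2 CPM times weight, so this and the moves of the score are not separate results. In the quintile of lowest weight, 112 of 116 genes that rose in wild type rose in mutants. In the quintile of highest weight, 31 of 878 rose in mutants and 606 fell. The difference was called for 2.84%, 4.69%, 4.19%, 7.99% and 47.8% of the genes from the lowest to the highest quintile. The Pearson correlation between the changes of the 2 lines across genes was 0.73, 0.79, 0.75, 0.53 and -0.58 in the same order. It was -0.06 over the 15143 genes with a weight (Spearman 0.25) and -0.11 over all tested genes (Spearman 0.16). Genes are not independent replicates, and all changes of a line share its libraries.

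Wild-type DMSO replicate 4 and the score bear on these counts. Without that library, 160 genes were called higher and 1642 lower, and 1767 of the 2416 calls were kept with the same sign. The higher count also depended on other libraries. It was 609 without wild-type DMSO replicate 1 and 132 without wild-type TCDD replicate 1. Among mutants it was 222 and 224 without DMSO replicates 2 and 4, and 155, 234 and 237 without TCDD replicates 2, 3 and 4. With the library score as a term, edgeR called 0 genes for the difference. The smallest adjusted p was then 0.0814, 1506 genes had an unadjusted p under 0.05 (7.49%, against 5110 or 25.4% without the term), and 2272 of the 2416 differences kept their sign. The differences were also smaller, with a median over the 2416 genes of -1.21 without the term and -0.4 with it. The term takes up part of any group difference along the axis and raised the median SE of the difference from 0.24 to 0.36. The axis and a difference between the lines therefore cannot be told apart. That fit still called 1147 genes for TCDD in wild type and 2223 in mutants. Among the libraries numbered 9 to 16 in their titles, 2 per group, edgeR called 0 differences, and 2708 genes had an unadjusted p under 0.05. Of the 2416 genes, 2408 were tested there, and all of these kept the sign of the difference. Those libraries are part of the full set, so the signs are no separate check.

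**Figure D2:**
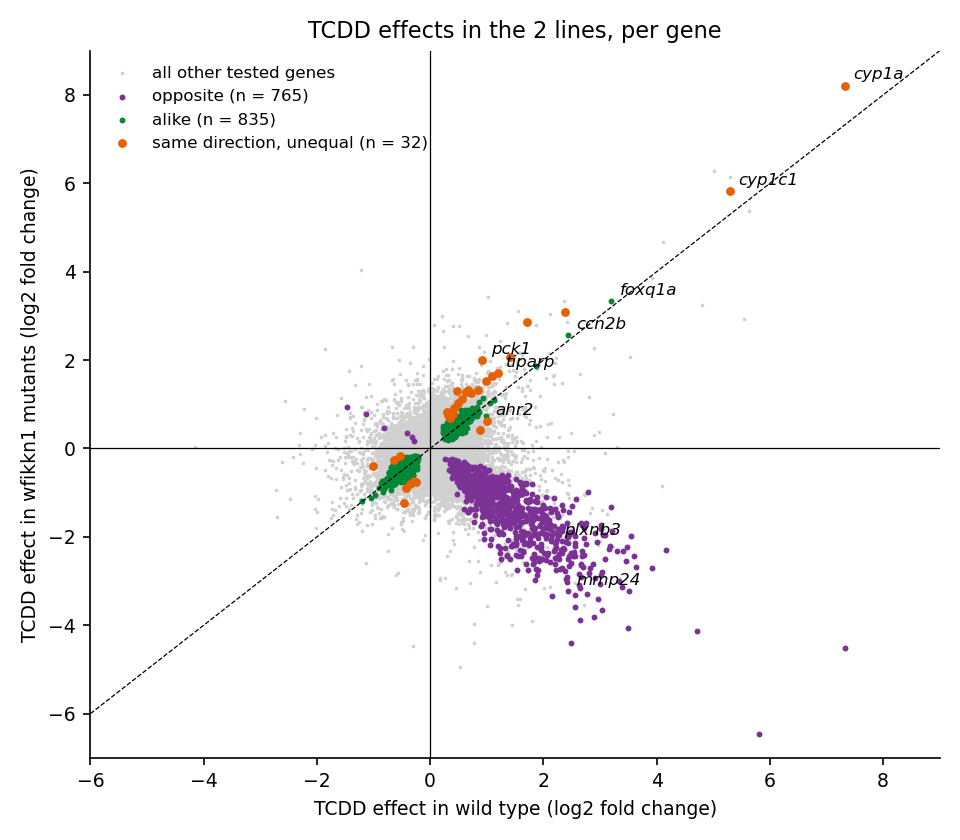
Each point is 1 tested gene, with its log2 fold change with TCDD in wild type on the x axis and in mutants on the y axis; colours mark the classes and the dashed line marks equal changes. Genes that rose in wild type and fell in mutants fill the lower right, 759 of them, against 6 in the upper left. The 835 genes called alike, by a 1.5-fold bound on the difference, lie along the dashed line.

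A shared response was made of 835 genes (4.15% of those tested), called in both lines in the same direction and with a 95% interval of the difference inside 1.5-fold either way. Of these, 242 rose and 593 fell, with median changes of -0.37 in wild type and -0.35 in mutants. The bound of 1.5-fold is wider than these medians. For genes with small changes, the rule therefore shows a shared direction and not a like size. A narrower bound left 175 genes alike. The median weight percentile of the 835 genes was 48, and for 629 of them no difference between the lines was called in either exposure. The same held for 13069 of all 20098 tested genes, and a missing call does not show equal levels. The count of alike genes was 548, 455 and 530 without wild-type DMSO replicate 1 and wild-type TCDD replicates 3 and 4. Another 396 genes were called in the same direction with an interval too wide to say.

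Among the genes with the largest shared changes was ccn2b, a connective tissue growth factor gene. Its CPM was 4.02, 3.43 and 3.12 in vehicle-treated wild type, 22.2, 16.8 and 18.2 in TCDD-treated wild type, 3.58, 3.22, 3.61 and 3.38 in vehicle-treated mutants, and 21.3, 20.1, 21 and 19.7 in TCDD-treated mutants. The exposures did not overlap in either line, and the lines overlapped in DMSO and in TCDD. The changes were 2.43 ± 0.14 and 2.57 ± 0.12, and the interval of the difference ran from -0.24 to 0.53.

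The forkhead gene foxq1a, a known AHR-responsive gene of fish, had a like change from unlike levels. It stood at 4.07, 3.11 and 3.65 CPM in vehicle-treated wild type, 30.6, 35.8 and 33.6 in TCDD-treated wild type, 6.38, 4.21, 6.36 and 6.59 in vehicle-treated mutants, and 51.5, 56.5, 62.1 and 66.2 in TCDD-treated mutants. In each exposure every mutant library lay above every wild-type library. The changes of 3.2 ± 0.17 and 3.33 ± 0.14 differed by 0.13 ± 0.21 (95% interval -0.31 to 0.57), while the mutant level was higher by 0.70 in DMSO (edgeR adjusted p = 0.00752) and by 0.83 in TCDD (edgeR adjusted p = 0.000254).

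The other alike genes named for the largest changes were ncam3, bmp1a, edn2 and dlc. The cell adhesion gene ncam3 rose by 1.87 in wild type and 1.86 in mutants (95% interval of the difference -0.37 to 0.34). For bmp1a, a procollagen proteinase gene, the rises were 1.13 and 1.09 (-0.27 to 0.20). The endothelin gene edn2 fell by 1.21 in wild type and by 1.18 in mutants (-0.51 to 0.57). The Notch ligand gene dlc fell by 1.04 and by 1.12 in the same order (-0.58 to 0.43).

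Of the 12 genes listed as the AHR battery, a list of genes linked to this receptor, 9 rose in wild type and 11 in mutants. Over all tested genes, 8.84% rose in wild type and 17.5% in mutants. The P450 gene cyp1d1 was called in neither line. The difference was called for 3 of the 12, all positive, and for 9 it was not, beside 1.85% higher and 10.2% lower over all tested genes. DESeq2 also called 3 higher and limma-voom 2, and 2 were called without wild-type DMSO replicate 4. The medians over the list were 2.48 in wild type, 2.32 in mutants and 0.21 for the difference, beside 0.03, 0 and 0.05 over all tested genes. With the score as a term, the median difference of the list was 0.03, beside -0.03 over all tested genes.

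The P450 gene cyp1a (ENSDARG00000098315) had the smallest adjusted p of the battery. It stood at 20.2, 17.2 and 21.4 CPM in wild-type DMSO and at 14.2, 19.8, 15.7 and 17.0 in mutant DMSO, where the lines overlapped. With TCDD it stood at 3190, 3090 and 3130 in wild type and at 4900, 5160, 4590 and 5220 in mutants, where they did not. The rise was 7.32 ± 0.13 in wild type and 8.21 ± 0.12 in mutants, a difference of 0.89 ± 0.14 (edgeR adjusted p = 0.000372, 95% interval 0.60 to 1.19). The lines differed by 0.66 with TCDD (edgeR adjusted p = 9.15e-05) and by -0.23 in DMSO (edgeR adjusted p = 0.14). Its weight lay at percentile 27.5, and with the score as a term the difference was 0.64 (edgeR adjusted p = 0.522).

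In cyp1c1, another P450 gene, the lines stood apart in DMSO rather than in TCDD. The CPM was 17.7, 20.1 and 19.3 in vehicle-treated wild type, 838, 702 and 700 in TCDD-treated wild type, 11.3, 13.4, 12.5 and 9.68 in vehicle-treated mutants, and 753, 622, 573 and 724 in TCDD-treated mutants. Mutants lay below all wild-type libraries in DMSO (-0.70, edgeR adjusted p = 0.000949) and overlapped with them in TCDD (-0.16, edgeR adjusted p = 0.29). The difference of 0.54 ± 0.16 (edgeR adjusted p = 0.0396) was no longer called under limma-voom, under the replicate block or with 8 of the 14 libraries left out singly.

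The gene tiparp, for a mono-ADP-ribosyltransferase that in mammals represses AHR activity, stood at 13.3, 17.4 and 13.9 CPM in wild-type DMSO and at 15.1, 15.0, 12.5 and 13.4 in mutant DMSO. With TCDD it stood at 35.0, 33.7 and 33.2 in wild type and at 44.5, 43.3, 45.6 and 49.4 in mutants. As for cyp1a, the lines overlapped in DMSO and not in TCDD. The rises were 1.19 ± 0.11 and 1.71 ± 0.10, and the difference of 0.51 ± 0.15 (edgeR adjusted p = 0.0316) ended under the replicate block and with 7 of the 14 libraries left out singly.

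For the other battery genes the difference was not called, and the intervals show what it could be. The difference of the P450 gene cyp1c2 was -0.26 ± 0.19 (95% interval -0.65 to 0.13), from changes of 5.64 and 5.38. For ahrra, an AHR repressor gene, it was 0.84 ± 0.36 (0.08 to 1.60), from 5.30 and 6.14. The other values were 0.13 for foxq1a, 0.19 for foxq1b, 0.51 for the glucuronosyltransferase gene ugt1ab, 0.23 for the quinone reductase gene nqo1, 0.07 for cyp1d1 and -0.21 for nfe2l2b, a gene of an Nrf2 factor. The repressor gene ahrrb had 0 to 4 counts in every DMSO library, so that its difference of -2.62 ± 1.32 is no bound.

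**Figure D3:**
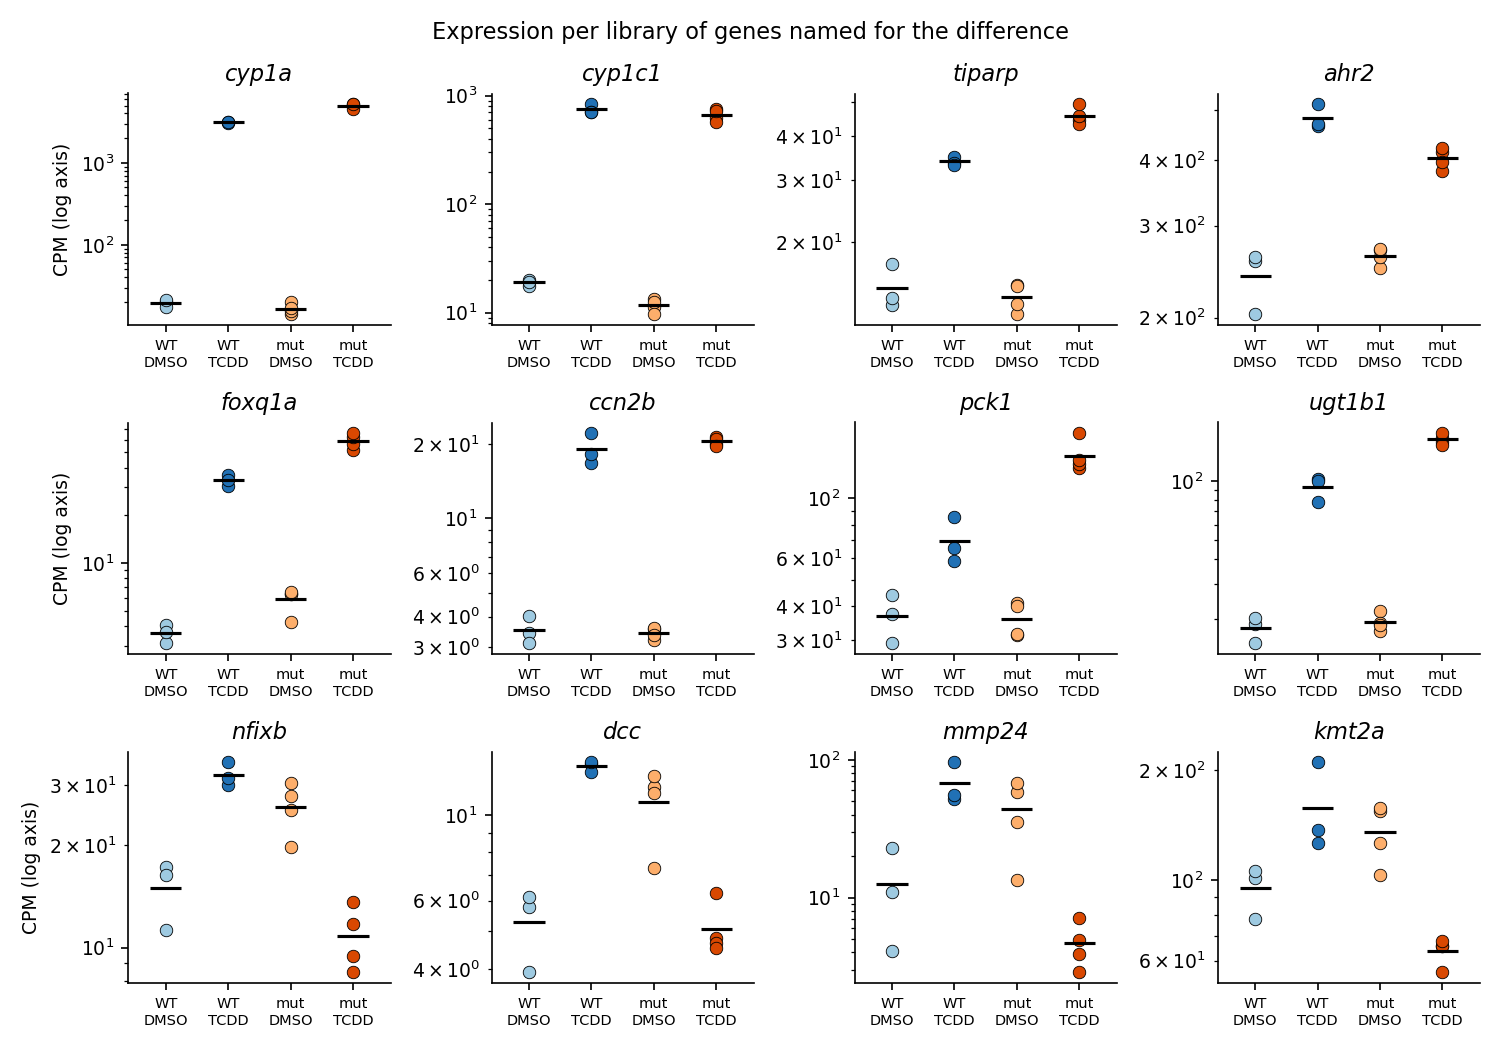
Library-scaled counts (CPM) of 12 genes in each library, on a log axis, by line and exposure, with a bar at the group mean. The cyp1a libraries with TCDD lie higher in mutants (4590 to 5220) than in wild type (3090 to 3190), ccn2b is alike in both lines, and nfixb, dcc, mmp24 and kmt2a are raised by TCDD in wild type and lowered in mutants.

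The 3 called differences of receptor and partner genes were negative, as were most called differences over all tested genes (10.2% lower, 1.85% higher). Of 8 genes, edgeR called 3 lower, 0 higher (3 at an unadjusted p under 0.05, 1 with DESeq2 and 0 with limma-voom) and 5 in neither direction. Without wild-type DMSO replicate 4, 1 was lower. The main fish receptor gene ahr2 stood at 257, 261 and 203 CPM in vehicle-treated wild type, 513, 465 and 469 in TCDD-treated wild type, 269, 249, 261 and 271 in vehicle-treated mutants, and 416, 382, 398 and 422 in TCDD-treated mutants. The lines overlapped in DMSO and not in TCDD, where mutants were lower. The rises of 1.00 ± 0.09 and 0.62 ± 0.08 gave a difference of -0.38 ± 0.12 (edgeR adjusted p = 0.0428), which was no longer called in 17 of 23 other settings, RLE scaling and DESeq2 among them.

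A second receptor gene, ahr1b, stood at 30.3, 28.7 and 25.3 CPM in vehicle-treated wild type, 36.3, 34.7 and 31.0 in TCDD-treated wild type, 30.7, 33.4, 29.9 and 30.3 in vehicle-treated mutants, and 25, 21.3, 23.5 and 26.1 in TCDD-treated mutants. It changed by 0.28 in wild type, which was not called (edgeR adjusted p = 0.0901), and fell by 0.37 in mutants. The exposures did not overlap in either line, and its difference was -0.65 ± 0.14 (edgeR adjusted p = 0.00411). The dimerization partner gene arnt2 fell by 0.53 in mutants and stood at -0.06 in wild type, with a difference of -0.47 ± 0.13 (edgeR adjusted p = 0.0198). In DMSO its level was higher in mutants by 0.47 (edgeR adjusted p = 0.00203).

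The class of larger responses in mutants held 27 genes, 22 of them rising and 5 falling in both lines. Their median changes were 0.57 in wild type and 1.26 in mutants, at a median weight percentile of 43.9. In all 27 the exposures did not overlap in either line, as in 13.1% of all tested genes; the class was chosen by calls in both lines, so nothing is read from this. By calls, the lines differed in TCDD alone for 11 of the 27 and in DMSO alone for 12. Over all 20098 tested genes these counts were 3651 and 1477. The difference is also the line difference in TCDD minus that in DMSO, so nothing is read from these counts. Larger and smaller responses together numbered 32, and 21 without wild-type TCDD replicate 1, 19 without mutant TCDD replicate 2 and 19 without mutant TCDD replicate 4.

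Of the 23 phase II conjugation genes, 3 were in this class. Among them the glucuronosyltransferase gene ugt1b1 stood at 18.8, 15.0 and 20.2 CPM in vehicle-treated wild type, 78.6, 102 and 100 in TCDD-treated wild type, 21.9, 19.0, 17.3 and 18.6 in vehicle-treated mutants, and 166, 158, 152 and 175 in TCDD-treated mutants. Its lines overlapped in DMSO and stood well apart with TCDD. The rises were 2.38 ± 0.13 and 3.09 ± 0.11, with a difference of 0.71 ± 0.16 (edgeR adjusted p = 0.00658).

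The gluconeogenesis gene pck1 stood at 29.2, 43.8 and 37.5 CPM in vehicle-treated wild type, 65.3, 58.5 and 85.6 in TCDD-treated wild type, 41.0, 31.2, 31.7 and 40.2 in vehicle-treated mutants, and 129, 174, 134 and 138 in TCDD-treated mutants. Again the mutants stood above wild type with TCDD alone. The rises were 0.92 ± 0.17 and 2.0 ± 0.15, and the difference of 1.08 ± 0.22 (edgeR adjusted p = 0.00283) had a 95% interval of 0.61 to 1.54.

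For leg1.1, a gene of a secreted liver protein of zebrafish, the lines differed in level already in DMSO. Its CPM was 16.4, 17.4 and 17.8 in vehicle-treated wild type, 21.4, 25.9 and 24.0 in TCDD-treated wild type, 3.09, 2.97, 3.56 and 3.95 in vehicle-treated mutants, and 8.86, 8.51, 8.25 and 7.52 in TCDD-treated mutants. Mutants were lower in both exposures, by -2.34 in DMSO (edgeR adjusted p = 2.99e-09) and -1.52 in TCDD (edgeR adjusted p = 4.02e-07). From that low level the rise was 1.29 ± 0.12, against 0.47 ± 0.13 in wild type, a difference of 0.82 ± 0.18 (edgeR adjusted p = 0.00406).

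Falls that were larger in mutants included thrb, a thyroid hormone receptor gene. It stood at 169, 168 and 160 CPM in vehicle-treated wild type, 151, 124 and 143 in TCDD-treated wild type, 200, 191, 192 and 204 in vehicle-treated mutants, and 117, 119, 111 and 118 in TCDD-treated mutants. The mutant libraries lay above wild type in DMSO and below it in TCDD. The changes were -0.25 ± 0.08 and -0.76 ± 0.07, a difference of -0.50 ± 0.10 (edgeR adjusted p = 0.0025).

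Smaller responses in mutants were called for 5 genes, 2 that rose and 3 that fell in both lines. One was ahr2, described above. The transmembrane protein gene tmem242 stood at 27.4, 28.6 and 36.5 CPM in vehicle-treated wild type, 15.7, 15.5 and 14.9 in TCDD-treated wild type, 22.5, 22.2, 23.0 and 22.7 in vehicle-treated mutants, and 16.9, 16.2, 18.6 and 17.3 in TCDD-treated mutants. Its fall was -1.01 ± 0.11 in wild type and -0.39 ± 0.10 in mutants, and every DMSO level was lower in mutants. The nuclear import gene kpna1 (-0.54 and -0.17) and naa38, a subunit of a protein acetyltransferase (-0.63 and -0.26), fell less in mutants too, by differences of 0.36 ± 0.10 (edgeR adjusted p = 0.0228) and 0.37 ± 0.11 (edgeR adjusted p = 0.0386). The kpna1 call ended with 4 of the 14 libraries left out singly, and the naa38 call with 9 and under the replicate block.

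Opposite responses were called for 765 genes (3.81% of those tested), of which 759 rose in wild type and fell in mutants. Their median changes were 1.24 and -1.23, with differences from -12.28 to -0.51. Of the 759, 504 did not overlap between exposures in either line, against 13.1% of all tested genes. The class was chosen by calls in both lines, so nothing is read from this. The median weight percentile was 97, and 606 of the 625 genes with a weight lay in the quintile of highest weight. By calls, the lines differed in TCDD alone for 389 of the 759, and in both exposures with opposite signs for 362. Over all 20098 tested genes these counts were 3651 and 489, and again nothing is read from them. Without wild-type DMSO replicate 4, 410 genes were called opposite, and without wild-type TCDD replicate 1, 460. With the score as a term the medians of the 759 genes were 0.57 in wild type and -0.27 in mutants, and 0 genes were called opposite by edgeR. The part of the library axis in these responses was not tested.

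Among the opposite genes of smallest p was nfixb, a transcription factor gene of the nuclear factor I family. It stood at 17.2, 16.4 and 11.3 CPM in vehicle-treated wild type, 30.1, 35.1 and 31.4 in TCDD-treated wild type, 25.3, 30.5, 19.7 and 27.9 in vehicle-treated mutants, and 9.44, 8.47, 13.6 and 11.7 in TCDD-treated mutants. Mutants lay above wild type in DMSO and below it with TCDD, without overlap in either exposure. The changes were 1.11 ± 0.19 and -1.26 ± 0.17, a difference of -2.37 ± 0.25 (edgeR adjusted p = 0.000199). Wild-type DMSO replicate 4 and mutant DMSO replicate 3, the lowest scores of their groups, were also the lowest nfixb libraries of their groups. The weight of nfixb lay at percentile 93.1, and the score is built from such genes, so this is no separate result.

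The same DMSO libraries were the lowest of their groups in dcc, the gene of a netrin receptor, whose weight lay at percentile 95.3. It stood at 5.78, 6.12 and 3.92 CPM in vehicle-treated wild type, 13.5, 12.9 and 13.7 in TCDD-treated wild type, 11.8, 11.4, 7.31 and 12.6 in vehicle-treated mutants, and 4.82, 4.67, 6.3 and 4.54 in TCDD-treated mutants. Both lines were free of overlap between exposures. The changes were 1.34 ± 0.21 and -1.09 ± 0.18, and the difference was -2.43 ± 0.27 (edgeR adjusted p = 0.000199). The integrin gene itga9 (1.37 in wild type, -0.89 in mutants) and nyap2b, a gene of a neuronal phosphoprotein (0.47 and -1.02), were alike in direction.

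Larger opposite changes came with a wider spread between libraries. The membrane-type metalloproteinase gene mmp24 stood at 10.9, 22.9 and 4.1 CPM in vehicle-treated wild type, 96.3, 52.2 and 55.4 in TCDD-treated wild type, 57.9, 35.5, 13.4 and 67.9 in vehicle-treated mutants, and 3.89, 2.87, 7.13 and 4.93 in TCDD-treated mutants. Within wild-type DMSO its highest library was 22.9 and its lowest, replicate 4, was 4.1. The changes were 2.43 ± 0.53 and -3.22 ± 0.50, a difference of -5.65 ± 0.73 (edgeR adjusted p = 0.000199), and its weight lay at percentile 99.9.

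The reverse pattern, a fall in wild type and a rise in mutants, was called for 6 genes at a median weight percentile of 40.5 over the 4 that had a weight. The nuclear pore gene nup133 stood at 64.2, 64.7 and 67.6 CPM in vehicle-treated wild type, 53.9, 52.7 and 55.2 in TCDD-treated wild type, 57.4, 60.5, 58.2 and 59.6 in vehicle-treated mutants, and 64.0, 68.0, 69.8 and 65.7 in TCDD-treated mutants. No exposure overlapped with the other in either line, at changes of -0.28 ± 0.07 and 0.18 ± 0.06. For aldh2.1, a mitochondrial aldehyde dehydrogenase gene, the changes were -0.32 and 0.27, with a difference of 0.58 ± 0.13 (edgeR adjusted p = 0.00701). For the annexin gene anxa13l they were -0.41 and 0.35, with a difference of 0.76 ± 0.14 (edgeR adjusted p = 0.00123).

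A called difference with a call in 1 line was found for 1493 genes, 1173 called in mutants and 320 in wild type. In the 1173, 910 differences were negative and 263 positive, and the median weight percentile was 84.2. Examples of smallest p were kank4, a cytoskeletal adaptor gene (0.27 in wild type, -1.10 in mutants), gtf2h4, a gene of a subunit of the transcription factor TFIIH (0.22 and -1.17), fam160a1a (0.50 and -1.61) and acanb, an aggrecan gene of cartilage (0.62 and -1.82). The acanb libraries stood at 5.52, 4.45 and 3.12 CPM in vehicle-treated wild type, 7.86, 5.68 and 6.57 in TCDD-treated wild type, 8.36, 8.98, 5.77 and 10.8 in vehicle-treated mutants, and 2.45, 2.29, 2.59 and 2.29 in TCDD-treated mutants. Mutant TCDD libraries were the lowest of all 14, and the difference was -2.43 ± 0.31 (edgeR adjusted p = 0.000199).

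Among the 320 genes called in wild type was aatka, a kinase gene, at 17.4, 15.2 and 13.9 CPM in vehicle-treated wild type, 47.8, 30.3 and 32.0 in TCDD-treated wild type, 24.5, 20.8, 19.7 and 24.1 in vehicle-treated mutants, and 18.8, 17.5, 19.2 and 20.0 in TCDD-treated mutants. Its mutant exposures overlapped, and its difference was -1.49 ± 0.20 (edgeR adjusted p = 0.000207). The others of smallest p were the ankyrin repeat gene ankrd12 (0.65 in wild type, -0.19 in mutants), iqsec3b, a gene of an exchange factor of Arf proteins (2.03 and -0.44), and pxdn, the peroxidasin gene of basement membranes (1.82 and -0.27). The weight of pxdn lay at percentile 98. With the score as a term, pxdn was called as a rise in both lines, by 1.18 in wild type and 0.65 in mutants.

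Gene lists of pathways and tissues are described by their counts and medians, beside 1.85% higher, 10.2% lower and a median difference of 0.05 over all tested genes. The lists described first had many lower differences, and median weight percentiles between 61.6 and 87.7. With the score as a term, the median difference went from -0.57 to -0.05 for axon guidance and from -0.39 to -0.24 for chromatin modifiers. For matrix and fin fold it went from -0.28 to -0.12, for metalloproteinases from -0.02 to -0.08 and for the TGF-beta list from -0.16 to -0.11. Of 35 axon guidance genes, 1 was higher, 17 lower and 17 not called, with a median of 0.43 in wild type and -0.30 in mutants, and a median weight percentile of 87.7. Of these, 10 were opposite, and dcc, plxnb3 (a plexin gene, -4.34 ± 0.53) and nrp1b (a neuropilin gene, -1.39 ± 0.19) had the smallest p. The plxnb3 libraries stood at 12.8, 16.5 and 7.48 CPM in vehicle-treated wild type, 70.7, 46.4 and 55.0 in TCDD-treated wild type, 42.4, 25, 10.7 and 52.4 in vehicle-treated mutants, and 7.23, 7.14, 8.29 and 7.52 in TCDD-treated mutants. In each line the exposures did not overlap. Without wild-type DMSO replicate 4, 15 of the 35 were lower.

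Of 41 chromatin modifier genes, edgeR called 19 lower, 0 higher (3 at an unadjusted p under 0.05, 0 with DESeq2 or limma-voom) and 22 in neither direction, at medians of 0.14 and -0.32 and a weight percentile of 74.0. The histone methyltransferase gene kmt2a stood at 101, 106 and 78 CPM in vehicle-treated wild type, 211, 126 and 137 in TCDD-treated wild type, 155, 126, 103 and 158 in vehicle-treated mutants, and 65.6, 55.7, 65.8 and 67.9 in TCDD-treated mutants. Its exposures did not overlap in either line, and its difference was -1.82 ± 0.24 (edgeR adjusted p = 0.000199). The deacetylase gene hdac4 (-2.73 ± 0.39) and tet2 of DNA demethylation (-1.24 ± 0.17) were lower as well. Without wild-type DMSO replicate 4, 16 were lower.

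Of the 45 matrix and fin fold genes, edgeR called 17 lower, 0 higher (6 at an unadjusted p under 0.05, 3 with DESeq2 and 0 with limma-voom) and 28 in neither direction, at medians of 0.30 and -0.17 and a weight percentile of 61.6. The fibrillin gene fbn2b stood at 274, 303 and 169 CPM in vehicle-treated wild type, 508, 490 and 524 in TCDD-treated wild type, 456, 413, 251 and 504 in vehicle-treated mutants, and 228, 225, 284 and 213 in TCDD-treated mutants. Its mutant exposures overlapped because DMSO replicate 3, at 251, lay below TCDD replicate 3, at 284. The difference was -1.80 ± 0.28 (edgeR adjusted p = 0.000361), and the type IV collagen gene col4a1 had one of -1.50 ± 0.21. Without wild-type DMSO replicate 4, 15 of the 45 were lower. Metalloproteinase genes had 1 of 19 higher, the collagenase gene mmp13a (1.15 ± 0.35), whose call ended under limma-voom, under the replicate block and with 9 of the 14 libraries left out singly, wild-type DMSO replicate 4 among them. Another 4 were lower, led by mmp24, mmp15b (-5.43 ± 0.74) and mmp16b (-2.30 ± 0.34).

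In the TGF-beta, activin and myostatin list, the family whose ligands Wfikkn1 binds, edgeR called 9 of 27 genes lower, 0 higher (4 at an unadjusted p under 0.05, 1 with DESeq2 and 0 with limma-voom) and 18 in neither direction, at medians of 0.23 and -0.28 and a weight percentile of 61.8. The type I receptor gene tgfbr1b stood at 15.3, 14 and 2.14 CPM in vehicle-treated wild type, 33.4, 29.3 and 32.6 in TCDD-treated wild type, 30.8, 20.8, 4.51 and 33.3 in vehicle-treated mutants, and 1.79, 1.81, 3.43 and 1.51 in TCDD-treated mutants. Replicate 4 of wild-type DMSO and replicate 3 of mutant DMSO lay far below the rest of their groups. The difference was -5.0 ± 0.81 (edgeR adjusted p = 0.000461), at weight percentile 100, and with the score as a term it was -0.94 (edgeR adjusted p = 0.722). Its paralog tgfbr1a (-2.62 ± 0.47) and the activin receptor gene acvr1bb (-1.80 ± 0.28) were opposite between the lines. Without wild-type DMSO replicate 4, 9 genes of the list were also lower.

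**Figure D4:**
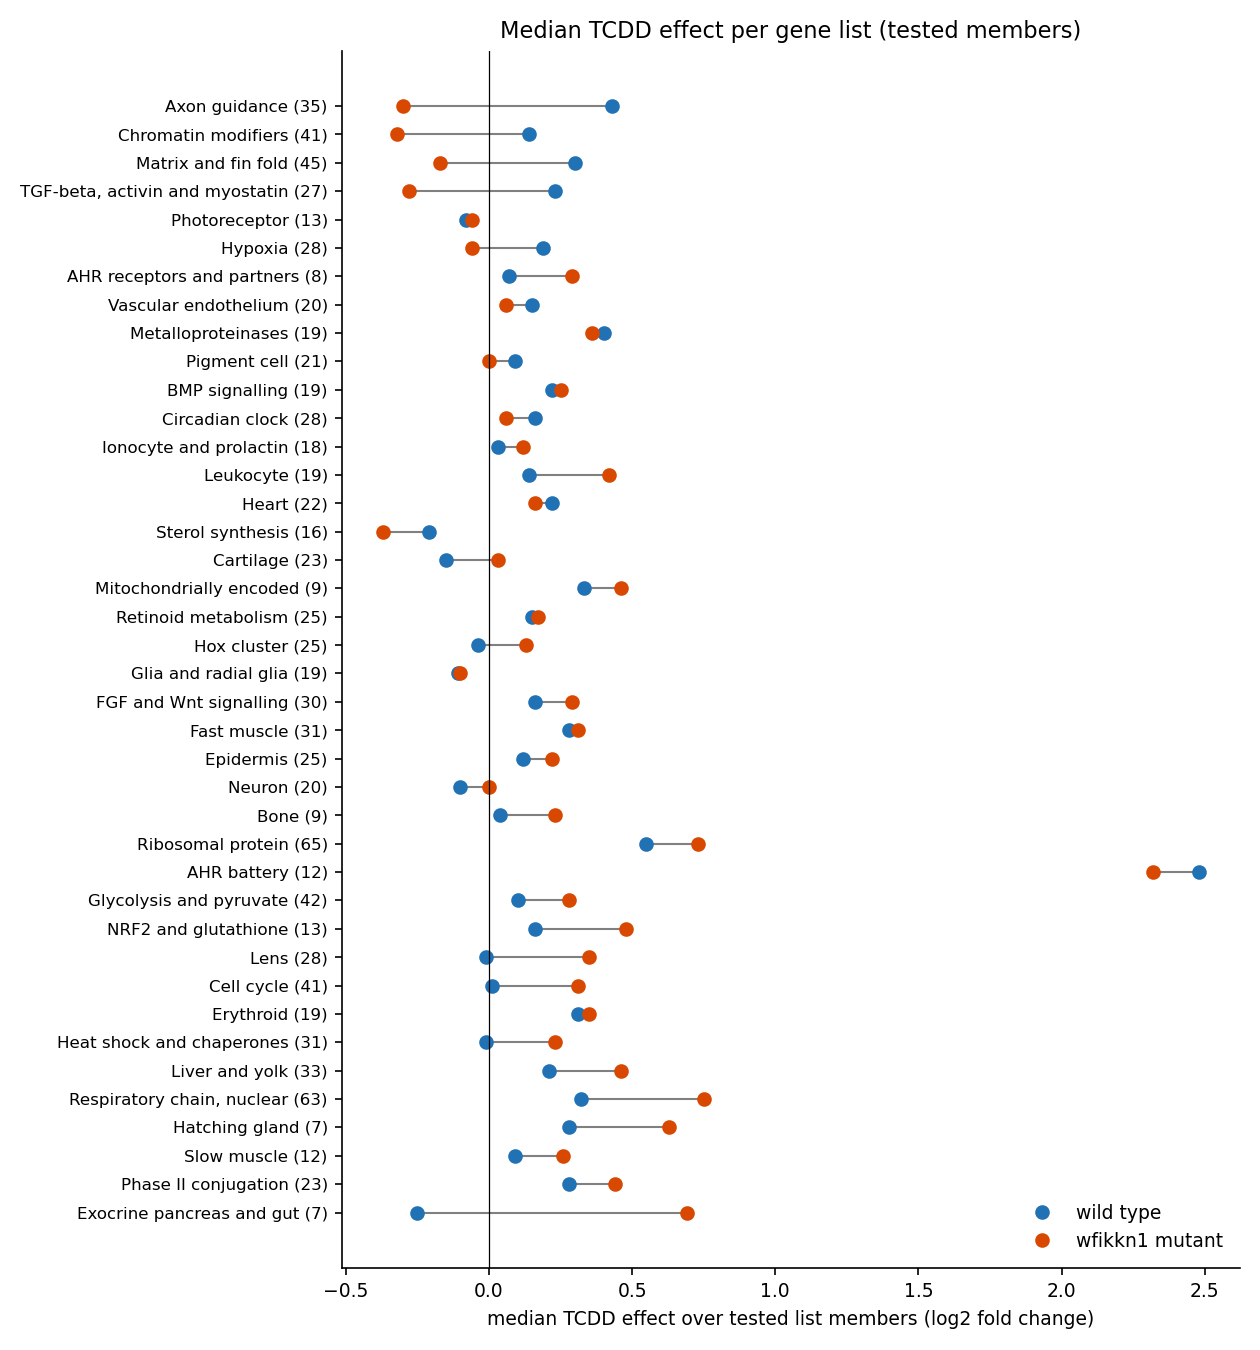
Median log2 fold change with TCDD over the tested members of each gene list, in wild type and in mutants, with the number of tested members in parentheses. The medians of the AHR battery lie near each other (2.48 and 2.32), and those of axon guidance genes lie on opposite sides of 0 (0.43 and -0.30).

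Other lists had mostly positive differences, and median weight percentiles between 13.4 and 28.4. These positive medians shrank or changed sign with the score as a term. The median difference went from 0.35 to 0.01 for the nuclear respiratory chain and from 0.2 to -0.26 for ribosomal proteins. For phase II conjugation it went from 0.51 to -0.06, and for liver and yolk from 0.29 to 0.05. Over all tested genes it went from 0.05 to -0.03. Of 63 nuclear genes of the respiratory chain, 14 rose and 2 fell in wild type and 52 rose in mutants, at medians of 0.32 and 0.75. The difference was positive for 61 of the 63, but called for 6, all higher, with edgeR and for 13 with DESeq2. The complex III gene uqcrc2a stood at 107, 110 and 140 CPM in vehicle-treated wild type, 125, 108 and 122 in TCDD-treated wild type, 84.2, 85.9, 76.7 and 89.6 in vehicle-treated mutants, and 128, 151, 112 and 125 in TCDD-treated mutants. Wild-type exposures overlapped and mutant exposures did not, and the difference was 0.63 ± 0.15.

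Of 65 ribosomal protein genes, 37 rose in wild type and 59 in mutants, at medians of 0.55 and 0.73 and a weight percentile of 13.4. The difference was positive for 58 and called for 0 by edgeR, with 5 at an unadjusted p under 0.05, 1 call by DESeq2 and 0 by limma-voom. By the interval rule, 17 of the 65 were alike.

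Phase II conjugation genes had 3 of 23 higher and 20 not called, at a median difference of 0.51. Besides ugt1b1 they were ugt1b5 (0.66 ± 0.16) and the glutathione transferase gene gstp1 (0.53 ± 0.16), whose call ended with 9 of the 14 libraries left out singly. Liver and yolk genes had 4 of 33 higher and 2 lower, and without wild-type DMSO replicate 4 they had 2 higher and 1 lower. The apolipoprotein E gene apoea stood at 110, 87.5 and 137 CPM in vehicle-treated wild type, 131, 135 and 158 in TCDD-treated wild type, 67.4, 65.9, 68.7 and 65.0 in vehicle-treated mutants, and 155, 145, 194 and 145 in TCDD-treated mutants. Mutant DMSO libraries were the lowest of all, and the difference was 0.92 ± 0.18 (edgeR adjusted p = 0.00221). For apoeb, its paralog, the difference was 0.49 ± 0.12.

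Counts for tissue markers are read beside a called difference in 12% of all tested genes. Lens genes had 3 of 28 higher and 25 not called, and the 3 edgeR calls ended without wild-type DMSO replicate 4. Cartilage genes had 3 of 23 higher, 2 lower (21.7% called) and 6 alike, and without that library 1 lower call was left. Fast muscle genes had 1 of 31 higher, 3 lower (12.9% called) and 4 alike, with 2 lower calls left without that library. Among muscle genes, the calcium release channel genes ryr1b (-1.15 ± 0.19) and ryr3 (-1.21 ± 0.21) were opposite. They differed from most of the fast muscle list, in which 19 of 31 genes rose in mutants and only these 2 fell. The list medians were 0.28 in wild type and 0.31 in mutants. The difference was positive for 19 of its genes and negative for 11, and DESeq2 called 5 higher and 3 lower. Vascular endothelium genes had 4 of 20 lower (20% called), erythroid genes 1 of 19 higher and 3 lower (21.1%), and pigment cell genes 3 of 21 lower (14.3%). In the same order, DESeq2 called 1, 3 and 1 higher and 4, 3 and 3 lower. Differences of either sign, called or not, were positive for 9, 14 and 9 genes and negative for 11, 5 and 10. The median differences were -0.03, 0.26 and 0. The part of these tissues in the differences of other genes was not tested.

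In photoreceptor (13), ionocyte and prolactin (18) and exocrine pancreas and gut (7) genes, edgeR called 0 differences. At an unadjusted p under 0.05 there were 0, 5 and 1, DESeq2 called 0, 1 and 0, and limma-voom called 0 in each.

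The authors' deposited tables of significant genes come from the same experiment, so they are no independent check. Their split of directions was the same. They list 2871 genes for TCDD in wild type and 7244 in mutants, with 1983 in both. Of these, 1289 have the same sign in both of the authors' deposited tables and 694 the opposite sign, 688 of them up in wild type. Of the 765 opposite genes, 690 have opposite signs in the authors' deposited tables.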

How the data were processed

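RNA was measured in 14 libraries of pooled whole zebrafish embryos, from stranded libraries of poly(A) RNA read as single ends of 100 bp, per the labels' protocols. The deposited counts are raw reads per gene that the authors made, and the submitters' processing notes name HTSeq 0.12.4, SAMtools 1.10, HISAT2 2.2.0, cutadapt 1.8.1 and edgeR, and assembly GRCz11, with no roles. The annotation release and the strand setting of the counting are not given in the sources used here, so that overlapping genes and near-identical paralogs may share reads. The authors' tables hold log2 ratios, with p-value columns, per the file headers, and an F statistic, a score the authors deposited beside them. They were used for gene names (10902 IDs; 18822 came from a table of gene names and 2796 had none) and for the signs compared at the end.

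The main test was that of edgeR 4.0.16 in R 4.3.3 (TMM, filterByExpr, 1 mean per group, quasi-likelihood F test, Benjamini-Hochberg over 20098 genes, called under 0.05). The SE is the log2 change over the square root of F. Tested genes held 99.9% of counts, the biological coefficient of variation was 0.151, and 3 counts correspond to 0.11 to 0.145 CPM. The 40 gene lists held 1057 matched genes, of which 978 were tested. Weights were computed for genes whose mean log2 CPM reached 1, with a prior count of 2. Alternatives used DESeq2 1.42.0 and limma-voom (limma 3.58.1), other scaling and filters, sample numbers, the replicate number, the score and each library left out.

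Named were wfikkn1, the AHR battery, the 4 genes of smallest p per class (6 of largest change for alike), whose mean log2 CPM reached 1 and with a name that is no clone or locus, and up to 3 called genes per list with at least 3 called. The members and lists were chosen with earlier results of these data known. On simulated data with 19773 genes, the fit recovered 8.96% of 67 differences of 1.5-fold, 32.8% of 67 of 2-fold and 78.8% of 66 of 4-fold, and called 2 unchanged genes. Each simulated gene was drawn by itself, without the shared library axis. These values therefore do not show how many calls in the data are false. Promoter sequences were not used here.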

Additional observations from a re-analysis of the deposited data

Results flagged for a closer look

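Differences of TCDD effects between the lines, each tested as the difference itself with edgeR, are repeated here for the genes named by class. Negative were those of kank4 (-1.36), gtf2h4 (-1.39), acanb (-2.43), fam160a1a (-2.10), aatka (-1.49), ankrd12 (-0.84) and iqsec3b (-2.47). So were those of pxdn (-2.10), thrb (-0.50), nfixb (-2.37), nyap2b (-1.49), itga9 (-2.26), dcc (-2.43) and ahr2 (-0.38). Positive were those of cyp1a (0.89), pck1 (1.08), leg1.1 (0.82), tiparp (0.51), cyp1c1 (0.54), anxa13l (0.76), nup133 (0.46), aldh2.1 (0.58), tmem242 (0.61), kpna1 (0.36) and naa38 (0.37). These signs do not give the order of levels between the lines. In all, the difference was positive for 372 genes and negative for 2044.

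Single libraries stood far from the other 3 of their group in 6 of 84 groups of 4 libraries, by a gap rule that chance meets in about 1 in 20 groups. In mutant DMSO, foxq1a was at 4.21 CPM in replicate 2 against 6.36 to 6.59, and gtf2h4 at 38.2 in replicate 3 against 46.5 to 47.9. In mutant TCDD, iqsec3b was at 2.47 in replicate 2 against 1.63 to 1.71, and ugt1ab at 54.3 in replicate 1 against 36.5 to 38.4. Also in mutant TCDD, dcc was at 6.3 in replicate 3 against 4.54 to 4.82, and kpna1 at 141 in replicate 1 against 125 to 127.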

How the results depend on the processing

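Among the named genes, no called difference reversed under another scaling, filter or tool or with a library left out, while counts moved. The values without change of setting were 372 higher, 2044 lower, 765 opposite, 32 of unequal size in the same direction, 835 alike and 1493 called in 1 line. The higher count was 571 with no filter, 779 with a CPM of at least 1 in 4 libraries and 832 with DESeq2, which also gave 58 of unequal size; a narrower bound of the interval left 175 alike. With the library score as a term, higher, lower, opposite, unequal and 1-line counts were 0 and 217 genes were alike. What the sample numbers in the titles mark is not given. Among numbers 9 to 16, with 2 libraries per group, edgeR called 0 in the same classes (smallest adjusted p 0.117) and 23 were alike. Numbers 1 to 8 hold 1 library of each wild-type group and gave no value. With each library left out in turn, counts ran from 132 to 609 higher, 1623 to 2233 lower, 410 to 931 opposite, 19 to 32 unequal, 455 to 1059 alike and 1154 to 1869 in 1 line. The lowest higher count came without wild-type TCDD replicate 1 and the highest without wild-type DMSO replicate 1. Among named genes, the score term turned tfr1a (0.23), rxrba (0.02), tbx20 (0.02) and rargb (0.03), with adjusted p from 0.922 to 0.997, and the cause was not tested. It ended the call of 91 others, and the numbers 9 to 16 that of 95.

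No pairing of the samples by replicate number was seen. Same-numbered libraries had correlations of -0.36 to 0.33 (median 0.05, 19 pairs) and others of -0.31 to 0.42 (median 0). Of the 14 libraries, 4 correlated best with their own number. With so few libraries per group, these values cannot exclude pairing. With the replicate block, 317 genes were higher, 1901 lower, 630 opposite, 31 unequal, 720 alike and 1430 called in 1 line, and 2122 of the 2416 calls were kept with the same sign. In simulation with these group sizes but without the shared library axis, 8.96% of 1.5-fold differences were recovered. Depth and replicate number were not varied.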
